A study of Homo sapiens with 7 samples.

Results

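The peaks described here are those that a single HOXB13-K13ac ChIP-seq library, replicate 3, held alone. The members were chosen by peak position: a peak of the replicate 3 list against input was kept when it shared no base with any peak of 3 other HOXB13-K13ac lists. Those are the list of replicate 1, whose control is not named, the list of replicate 2 against input, and a list against input that no label ties to a library. Of the 18232 replicate 3 peaks, 11612 met this rule (63.7%, exact 95% binomial interval 63.0 to 64.4), and 6620 shared at least 1 base with another list. The 4 lists together held 140956 peaks. The intervals given here cover counting error only.

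All libraries came from C4-2B cells, a prostate cancer line derived from LNCaP that grows without androgen, kept in serum stripped of steroid hormones by charcoal and given no other treatment. The groups are 3 precipitations with an antibody to HOXB13 acetylated at lysine 13, 2 IgG precipitations and 2 inputs, the last being sheared chromatin that was not precipitated. Replicate 1 belongs to library series 2898 and replicates 2 and 3 to library series 3047. The labels do not say whether the replicates were separate cultures, and the names of replicates 1 and 3 differ by 1 punctuation mark, on which the assignment of their lists rests.

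HOXB13 is a homeobox transcription factor that binds DNA with the androgen receptor and FOXA1 at enhancers of prostate cells. Acetylation of a lysine can change which proteins a transcription factor recruits, and an antibody to the acetylated form is used to map where that form sits. A peak caller marks a region where precipitated reads pile up above the reads of a control, so what it finds depends on the depth of both libraries. Because the rule used overlap between lists, and the members come from 1 library, the values below are a description of that library and no test was made on them.

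The members had lower fold enrichment than the other peaks of their library and rested on few reads. The authors' fold enrichment over input at the summit, the highest point of a peak, had a median of 4.26 in the members (interquartile range 3.80 to 4.80), with a lowest value of 2.13 and a highest of 8.05. In the replicate 3 peaks shared with another list the median was 4.91 (4.20 to 5.88) and the highest value 18.0. A q of 0.05 or less was reached by 10431 members (89.8%), beside 91.9% of the whole replicate 3 list. With a −log10 q of 5 or more there were 89 members and 1056 shared peaks. The median −log10 q was 2.07 in the members and 2.79 in the shared peaks. The solitary peaks of the other lists were no higher in fold, with medians of 4.26 in replicate 2, 4.08 in the list tied to no library and 3.39 in replicate 1. Fold and q belong to the contrast that the rule used, so these differences are given as values only.

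The reads behind each peak could be recovered from the deposited fold and p. In the replicate 3 list the fold and −log10 p took only 1313 different pairs of values over 18232 peaks. The 10 most frequent pairs covered 37.8% of the members, compared with 19.5% of the shared peaks for their own 10 most frequent pairs. Each pair was matched by a whole number of reads at the summit and 1 background level. Here the fold is the reads plus 1 over the background plus 1, the form MACS2 uses, and p is the Poisson probability of more reads than were seen. For every replicate 3 peak a whole number gave the deposited −log10 p to within 0.0005, and for 11578 of the 11612 members only 1 number did so; for the rest the closest was taken. The same form matched all peaks of replicate 2 and of the list tied to no library. It matched only 0.165% of the replicate 1 peaks, so no read numbers are given for that list.

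By this reckoning the summit of a member held a median of 6 reads (interquartile range 5 to 6, mean 5.61). Of the members, 8031 (69.2%) had 5 or 6 reads, 10973 (94.5%) had 4 to 7, and 26 had 10 or more. The shared peaks of the same library had a median of 7 reads (6 to 8), and 1001 of them (15.1%) had 10 or more. The distributions overlapped over most of their range. The share of replicate 3 peaks that no other list held went down step by step with the reads at the summit. It was 86.1% at 4 reads, 78.9% at 5, 72.6% at 6, 51.1% at 7, 31.2% at 8, 13.8% at 9 and 3.71% at 10. In the replicate 2 list the median was 12 reads, and in the replicate 2 peaks that no other list held it was 7. A step of 1 read is thus a large part of the height of most members. Their order by fold or q depends on single reads and on the background level.

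**Figure D1:**
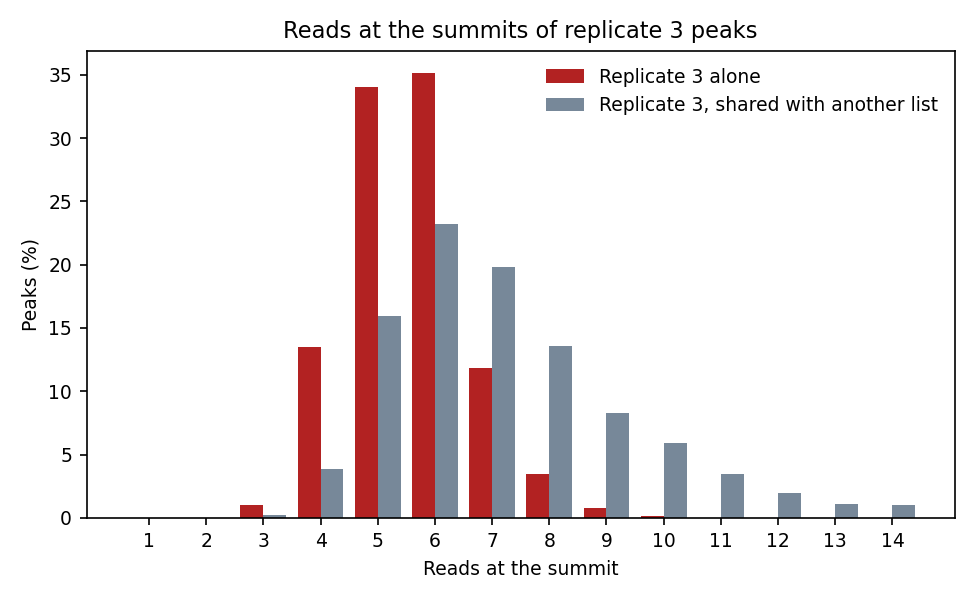
Percentage of peaks (vertical axis) by the number of reads at the summit (horizontal axis, 1 to 14 reads) for replicate 3 peaks alone and for those shared with another list. The members crowd at 5 and 6 reads, which hold 69.2% of them, and shared peaks reach further to the right; peaks above 14 reads are not drawn.

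The peak numbering of the authors, which runs from the strongest p, shows the same gradient. Of the 928 replicate 3 peaks numbered up to 1000, 36 were members (3.88%). The share was 38.4% for numbers 1001 to 5000, 67.4% for 5001 to 20000, 72.3% for 20001 to 50000 and 81.1% beyond 50000. The lowest number of a member was 65 and the highest 278511. In the list as a whole 93.5% of the numbers up to the highest were missing, and no source used here describes the filter that removed them.

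The members were narrow. Their median width was 222 bp (interquartile range 179 to 278), compared with 266 bp (202 to 353) in the shared peaks of the library. The narrowest width in the list, 145 bp, was that of 374 members (3.22%) and 87 shared peaks (1.31%). In all, 81.5% of the members were under 300 bp, 131 (1.13%) were over 500 bp, and the widest had 881 bp. The members covered 2.78 Mb in total. By reads at the summit, the median width of the members was 284 bp at 4 reads, 228 bp at 5 and 201 bp at 6. It was 215 bp at 7 reads, 227 bp at 9 and 236 bp at 10, so the smallest widths were at 6 reads. The summit lay near the middle of the peak, at a median of 48.9% of the width from the start, beside 49.2% in the shared peaks.

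**Figure D2:**
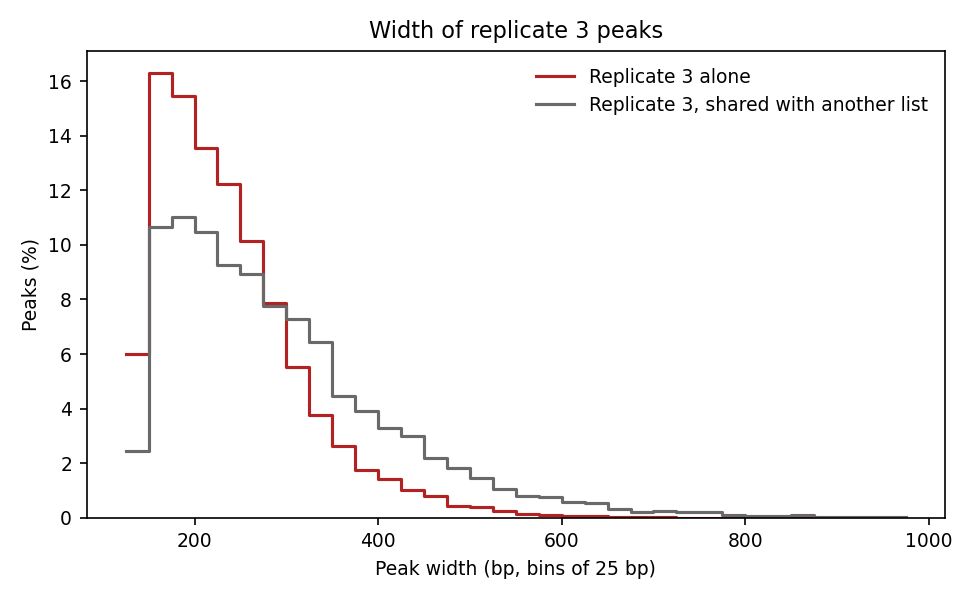
Percentage of peaks (vertical axis) in bins of 25 bp of peak width (horizontal axis, bp, up to 1000) for replicate 3 peaks alone and for those shared with another list. The members, with a median of 222 bp, stand higher than the shared peaks below about 275 bp, and the shared peaks, with a median of 266 bp, stand higher above 300 bp.

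The 5 widest members had 4 to 8 reads at the summit. The widest, on chromosome 1 from 60598898 to 60599778 (hg19, counted from 1, as for all positions here), had 881 bp, a fold enrichment of 4.26 and 5 reads at its summit. A peak of 832 bp on chromosome 8 from 8680110 to 8680941 had a fold of 4.31 and 5 reads. On chromosome 22 a peak of 813 bp from 44463210 to 44464022 had a fold of 3.59 and 4 reads. The other 2, of 744 bp on chromosome 14 and 715 bp on chromosome 22, had folds of 4.00 and 5.40. The last of these, from 23631220 to 23631934, had 8 reads and a −log10 q of 3.31, above the upper quartiles of the members.

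Most members lay more than 10 kb from any peak of the other lists. The distances were not compared with those of peaks placed at random. The median distance to the nearest one was 25.3 kb (interquartile range 8.30 to 71.3 kb), measured between the closest edges. Within 1 kb lay 514 members (4.43%, 4.06 to 4.82), within 10 kb 3307 (28.5%, 27.7 to 29.3) and within 100 kb 9477 (81.6%, 80.9 to 82.3). The other 2135 members (18.4%) were more than 100 kb from the nearest peak, and 33 were more than 1 Mb from it. The members closest to the limit of the rule were 3 with a gap of 10 bases or fewer, the smallest being 2 bases, and 42 with a gap of 100 bases or fewer. On the other side, 27 shared peaks had 100 bases or fewer in common with another list, and 4 had 10 or fewer, down to 1 base. For 88.6% of the shared peaks the whole peak lay inside a peak of another list, so few peaks were near the limit on either side.

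The nearest peak belonged to replicate 2 for 6341 members (54.6%), to replicate 1 for 3595 (31.0%) and to the list tied to no library for 1900 (16.4%). In 224 cases more than 1 list was at the same distance. The lists held 45216, 41303 and 36205 peaks in the same order, and the shares were not adjusted for this. Taken one list at a time, the median distance was 33.3 kb to replicate 2, 40.8 kb to replicate 1 and 42.3 kb to the list tied to no library. The shared peaks of replicate 3 itself were farther, with a median of 163 kb to the nearest, and 669 members (5.76%) had one within 10 kb. There are only 6620 shared peaks, fewer than in any of these lists, and the distances were not adjusted for this.

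When the same rule was applied to the other lists, their own solitary peaks lay closer to peaks of other lists. Replicate 1 had 8905 peaks alone (21.6% of its list) at a median distance of 1.98 kb. Replicate 2 had 11740 (26.0%) at a median of 6.12 kb. The list tied to no library had 1703 (4.70%) at 4.75 kb. Within 10 kb of another list lay 71.0% of the replicate 1 peaks alone (70.1 to 72.0), 56.8% of those of replicate 2 (55.9 to 57.7) and 63.5% of those of the list tied to no library (61.1 to 65.8). Of the replicate 3 members it was 28.5%. The intervals cover counting error within 1 list and do not measure differences between lists. The lists at hand to be near differ between these 4 sets, and each set is 1 list, so the difference was not tested over samples.

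**Figure D3:**
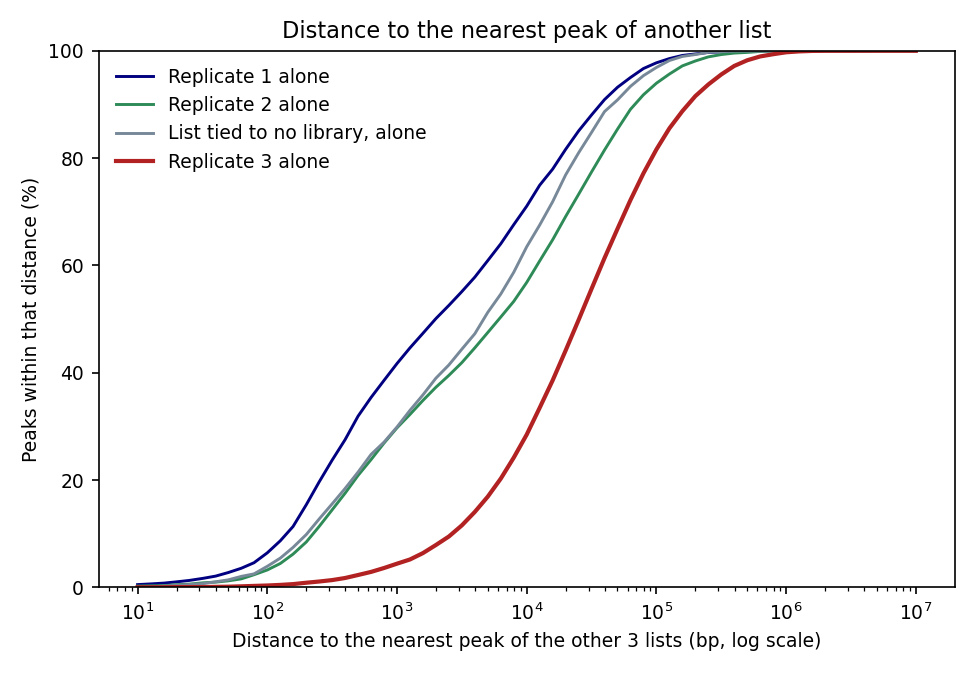
Percentage of solitary peaks of each list (vertical axis) whose nearest peak of the other 3 lists lies within a given distance (horizontal axis, bp on a log scale). The replicate 3 curve runs to the right of the other 3 over most of the range, reaching 28.5% at 10 kb where they have reached 56.8% to 71.0%.

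Members near to and far from other peaks differed little in width, fold or reads. The 20% of the members closest to another list (up to 6.18 kb) had a median width of 215 bp, a median fold of 4.20 and a mean of 5.69 reads. The 20% farthest away (from 92.0 kb) had 232 bp, a fold of 4.37 and 5.56 reads. The median −log10 q was 1.97 in the former and 2.12 in the latter. The share of members at the lowest background found in the list, described with the chromosomes below, was 8.48% in the nearest and 24.4% in the farthest of these.

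The 5 most remote members lay on 2 chromosomes. One was the single member of chromosome Y. It ran from 10008900 to 10009119, its summit had 9 reads and a fold of 5.0, and it was 3.23 Mb from the nearest peak of the other lists. It was 16.0 kb from the only peak of the replicate 3 list against IgG, which ran from 10025122 to 10025356 with a fold of 3.72. The other 4 lay on chromosome 4. Adjacent members from 63672853 to 63673218 and from 63673860 to 63674138 had folds of 3.67 and 4.40 and were both 1.82 Mb away. A member from 62254156 to 62254424 had a fold of 5.34 at 1.76 Mb, and one from 63948765 to 63948985 a fold of 5.13 at 1.54 Mb. Their summits held 4 to 7 reads, which is the common range of the members.

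The members were spread unevenly over the autosomes. The mean density was 4.14 members per Mb (exact 95% Poisson interval 4.06 to 4.21), from 11534 members over 2788 Mb. The length used for a chromosome ran from its first peak to its last, over all 4 lists. Chromosome 22 was densest, at 9.24 members per Mb (8.25 to 10.3). After it came chromosome 19 at 6.14 (5.52 to 6.80), then chromosome 17 at 5.97 (5.45 to 6.53), then chromosome 20 at 5.70 (5.13 to 6.32). The intervals of chromosomes 19, 17 and 20 overlap, so their order is not settled, and that of chromosome 22 lies above them. Chromosomes 11 (5.61), 3 (5.60) and 15 (5.52) came next, all inside the interval of chromosome 20.

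In the middle of the range, chromosomes 16 (4.93), 1 (4.64), 14 (4.58), 7 (4.51), 10 (4.46), 12 (4.43) and 8 (4.38) differed by little. Below them were chromosomes 5 (4.01), 18 (3.95), 9 (3.71) and 13 (3.05). At the low end, chromosome 21 had 2.57 members per Mb (2.08 to 3.13) and chromosome 6 had 2.33 (2.10 to 2.57). Chromosome 2 had 1.98 (1.80 to 2.16) and chromosome 4, the lowest, 1.74 (1.56 to 1.94). The intervals of chromosomes 2 and 4 overlap. The highest density was 5.31 times the lowest (4.54 to 6.22). Chromosome X held 77 members, a density of 0.497 (0.392 to 0.621), which is below every autosome.

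Some of this order is shared with the other lists and some is not. The chromosome-to-chromosome order of member density resembled that of the shared replicate 3 peaks (Spearman's rho 0.91 across 22 autosomes), of replicate 1 (0.81) and of replicate 2 (0.79). These are descriptions across chromosomes that share the genome and its gene content. Densities of all lists were high on chromosomes 17, 19 and 22, which are known to be rich in genes. Relative to replicate 2, however, the yield of members was far from even. For every 100 peaks of replicate 2 there were 36.5 members on chromosome 3 (34.0 to 39.1) and 34.4 on chromosome 7 (31.6 to 37.5). There were 18.8 on chromosome 19 (16.8 to 21.1), 16.9 on chromosome 4 (15.0 to 19.0), 16.4 on chromosome 6 (14.7 to 18.2), 15.2 on chromosome 21 (12.2 to 18.8) and 13.8 on chromosome 2 (12.5 to 15.2). On chromosome X there were 5.68 (4.45 to 7.15). Per 100 peaks of replicate 1 the low end of the autosomes was ordered otherwise. There were then 16.1 members on chromosome 21, 16.9 on chromosome 2 and 17.3 on chromosome 19. Chromosome 6 had 18.7, chromosome 4 had 21.1 and chromosome 17 had 21.6.

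Chromosomes 2, 4, 6 and 21, singled out after their values were seen, had 2.03 members per Mb together (1.93 to 2.15) and the other 18 autosomes 4.77 (4.68 to 4.86). Replicate 2 had 13.3 peaks per Mb on these 4 chromosomes and 16.5 on the others, and replicate 1 had 11.1 and 15.4. The shared peaks of replicate 3 were lower there as well, with 1.15 per Mb compared with 2.71. The share of replicate 3 peaks that were members was 63.9% on the 4 chromosomes and 63.7% on the other 18. The low density of these chromosomes is therefore a property of the whole replicate 3 list and not of its solitary peaks alone.

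**Figure D4:**
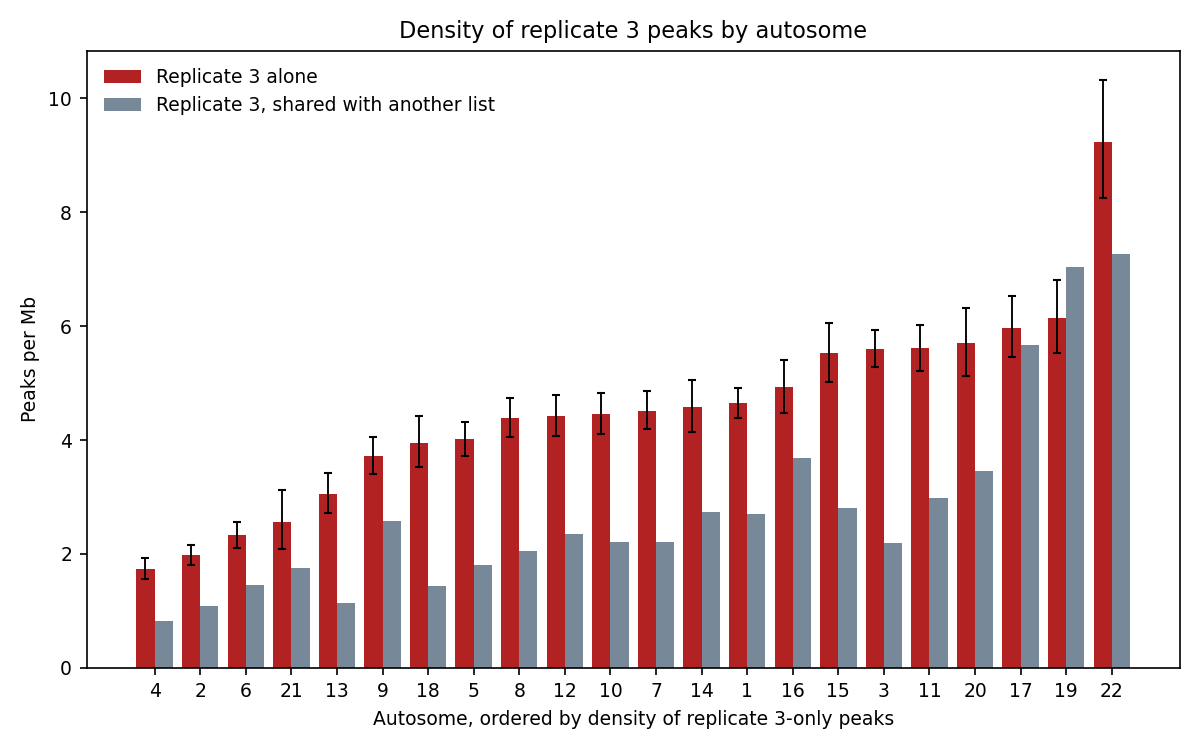
Peaks per Mb (vertical axis) on each autosome (horizontal axis, ordered by member density) for replicate 3 peaks alone, with exact 95% Poisson intervals as bars, and for replicate 3 peaks shared with another list. Density of the members runs from 1.74 on chromosome 4 to 9.24 on chromosome 22, and shared peaks outnumber members on chromosome 19 only.

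The share of replicate 3 peaks that no other list held was itself different between autosomes. It was highest on chromosomes 18 (73.3%, exact 95% binomial interval 68.8 to 77.5), 13 (72.8%, 68.2 to 77.1) and 3 (71.8%, 69.5 to 74.1). It was lowest on chromosomes 19 (46.6%, 43.0 to 50.2) and 17 (51.3%, 48.0 to 54.5). The distance to the nearest peak of another list differed between autosomes too. Its median was 11.4 kb on chromosome 19, 14.0 kb on chromosome 22 and 15.4 kb on chromosome 17, and 50.3 kb on chromosome 4. It was 26.1 kb on chromosome 13, where replicate 2 had a mean of 10.6 peaks per Mb. On chromosome 12 it was 36.2 kb, where replicate 2 had 17.0. These means do not give the density near the members. On chromosome 13, 181 of the 292 members lay up to position 40 Mb, with 339 of the 1016 replicate 2 peaks. Within 10 kb of another list lay 46.0% of the members on chromosome 19 and 18.1% of those on chromosome 4. The median width over the autosomes lay between 205 bp on chromosome 3 and 248 bp on chromosome 4, with 246 bp on chromosome 21, 243 bp on chromosome 2 and 236 bp on chromosome 6. This span of medians is about as wide as the gap between members and shared peaks.

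The recovered background differed between the same chromosomes. Background here is the number of reads the peak caller took as the level without enrichment at a summit. Its lowest value in the replicate 3 list was 0.364 reads, and 1805 members (15.5%) and 431 shared peaks (6.51%) stood within 0.0005 reads of that floor. Above it the most frequent levels in the members, rounded to 3 decimals, were 0.499 reads (1609 members), 0.666 (1462) and 0.832 (681), which are evenly spaced. At the floor were 58.2% of the members on chromosome 21 (47.8 to 68.1), 53.0% on chromosome 4, 50.6% on chromosome 2 and 39.8% on chromosome 6. On the other 18 autosomes the share was between 6.36% (chromosome 11) and 20.5% (chromosome 13), and on chromosome X it was 79.2%. The shared peaks of replicate 3 showed the same pattern at lower shares. Theirs were 32.8%, 27.4%, 26.8% and 11.6% on chromosomes 21, 4, 2 and 6, and 62.7% on chromosome X. On the other 18 autosomes they were between 1.24% (chromosome 11) and 9.17% (chromosome 13). The median fold was 4.40 on chromosomes 2, 4, 6 and 21 and on chromosome X, and between 4.20 and 4.33 on the other autosomes. The mean number of reads at the summit ran from 5.30 on chromosome 4 to 5.88 on chromosome 2. The mean of chromosome 2 includes 5 members with 31 to 65 reads over a high background, described below. The median was 5 reads on chromosomes 2, 4, 6 and 21. It was also 5 on chromosomes 5, 7 and 8, 5.5 on chromosome 18 and 6 on the remaining autosomes. The 4 autosomes with the highest share at the floor were thus also the 4 least dense. Among the other 18 the picture was mixed. Chromosome 13, with 20.5% at the floor, was the least dense of them. Chromosome 19, with 16.1%, was the densest after chromosome 22. Over all 22 autosomes, the share at the floor and the members per 100 replicate 2 peaks had a Spearman's rho of -0.58. The part of the background in the density was not tested.

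**Figure D5:**
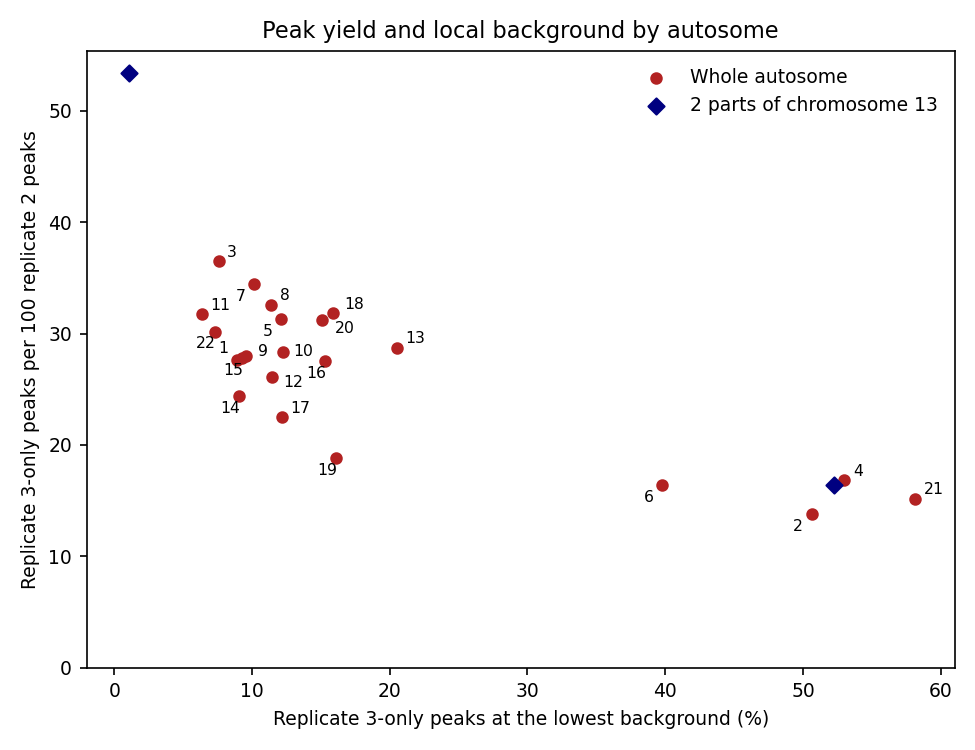
Members per 100 replicate 2 peaks (vertical axis) against the percentage of members at the lowest background of 0.364 reads (horizontal axis), with 1 point per autosome and diamonds for the parts of chromosome 13 before and after 40 Mb. Chromosomes 2, 4, 6 and 21 sit at the right with 13.8 to 16.9 members per 100 replicate 2 peaks, and the parts of chromosome 13 fall at opposite ends.

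The same contrast appeared within chromosome 13, which was also singled out after its values were seen. Up to position 40 Mb it held 181 members, a density of 8.98 per Mb, and beyond it 111, a density of 1.48 per Mb. Per 100 replicate 2 peaks there were 53.4 members in the former part and 16.4 in the latter. Of the members in the former part 1.10% stood at the lowest background, compared with 52.3% in the latter. The average of the chromosome, 3.05 members per Mb, thus describes neither part. Over autosomal bins of 10 Mb with at least 10 members and 20 replicate 2 peaks, 72 of 275 bins had 30% or more of their members at the lowest background. Of these, 56 lay on chromosomes 2, 4, 6 and 21 and 5 on chromosome 13. The median yield was 17.1 members per 100 replicate 2 peaks in these 72 bins and 30.3 in the other 203. Across all 275 bins the yield and the share at the lowest background had a Spearman's rho of -0.42, and of -0.17 over the 214 bins outside chromosomes 2, 4, 6 and 21. The bins share library and depth, so these coefficients describe this library only.

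Most members had no other member within 10 kb, and their spacing was not compared with that of a random spread at the same density. The median gap from one member to the next was 121 kb (interquartile range 42.1 to 286 kb). With members 10 kb apart or less joined, 10004 (86.2%) stood singly. There were 694 runs of 2 members, 58 of 3, 9 of 4 and 2 of 5, and none was longer. A run of 5 on chromosome 7 from 131888073 to 131908556 spanned 20.5 kb. Its peaks had folds of 4.20 to 4.67 and 6 reads each, and lay 0.856 to 21.2 kb from the other lists. The 3 runs of 4 that complete the first 5 by size and position lay on chromosome 1 from 27365427 to 27377845, on chromosome 3 from 52046254 to 52066991, and on chromosome 3 from 134052021 to 134071796. Their peaks had folds of 3.34 to 4.82 and 4 to 6 reads.

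The other run of 5 differed from all of these. On chromosome 2, from 133025694 to 133032798, 5 members within 7.11 kb had 31 to 65 reads at the summit. Their fold enrichment was only 2.45 to 3.50, because the background there was also high, at 8.15 to 18.1 reads. They lay 0.103 to 2.63 kb from the nearest peak of another list. For the peaks at 0.103 and 0.613 kb, that list was the one tied to no library. The nearest replicate 1 peaks were 60.9 and 64.3 kb from them, and the nearest replicate 2 peaks 75.6 and 79.0 kb. In all, 9 members had a background over 5 reads, and 8 shared peaks had one. The other 4 of the 9 were on chromosomes 6, 10, 14 and 16.

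The same high-background sites led the members by q. The highest −log10 q of a member, 12.8, was that of a peak on chromosome 10 from 98561251 to 98561608, with 73 reads over a background of 21.1 and a fold of 3.34. On chromosome 2 the peak from 133029159 to 133029417 had a −log10 q of 11.8, with 65 reads and a fold of 3.45. A second peak of that run, from 133025694 to 133026003, had 8.01 with 47 reads. On chromosome 14 the peak from 88237525 to 88237893 had 7.99, with 49 reads over a background of 14.0. Next among the members outside the 10 highest by fold was a peak on chromosome 3 from 170150241 to 170150457. It had 6.24 with 12 reads and a background of 0.845, beside an upper quartile of 0.651 over the members. Some of the 10 highest by fold, described below, had a higher −log10 q than this peak. It was 7.45 on chromosome 22, 6.49 on chromosome 1 and 6.37 on chromosome 15.

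Ranked by fold enrichment, the leading members were other peaks with 9 or 10 reads over a low background. The highest fold, 8.05, was that of a peak on chromosome 22 from 47605981 to 47606247, with 10 reads and a −log10 q of 7.45, lying 55.7 kb from the nearest peak of another list. Next were a peak on chromosome 1 from 6408671 to 6408897 with a fold of 7.49 at 10.6 kb and a peak on chromosome 15 from 51580940 to 51581169 with a fold of 7.42 at 23.3 kb. A peak on chromosome 8 from 12581938 to 12582170 had a fold of 7.34 at 28.8 kb. These 4 peaks each had 10 reads, and their folds differ through the background, from 0.367 to 0.499 reads.

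Another 3 peaks were tied at a fold of 7.33 with 9 reads over the lowest background. They lay on chromosome 3 from 82498350 to 82498582, on chromosome 6 from 36811180 to 36811396 and on chromosome 12 from 129463697 to 129464033. The first was 368 kb from the nearest peak of another list, the second 12.5 kb and the last 154 kb. The remaining 3 of the 10 highest were on chromosome 19 from 17727752 to 17728184 (fold 7.25), chromosome 22 from 46272153 to 46272409 (7.24) and chromosome 21 from 44792371 to 44792608 (7.18). That last peak was 0.459 kb from a replicate 1 peak and 26.7 kb from the nearest replicate 2 peak.

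In windows of 1 Mb, members were present in 2534 of the 2841 windows that held a peak of any list (89.2%), with a median of 3 per window. The window from 1000001 to 2000000 on chromosome 16 held the most, 25 members of 42 replicate 3 peaks, and also held 70 peaks of replicate 1 and 49 of replicate 2. The window from 126000001 to 127000000 on chromosome 3 held 24 members of 30 replicate 3 peaks, beside 22 peaks of replicate 1 and 12 of replicate 2. The next 3 were on chromosome 1 (2000001 to 3000000, 22 members), chromosome 8 (142000001 to 143000000, 22) and chromosome 14 (100000001 to 101000000, 21). Members exceeded the peaks of replicates 1 and 2 in the chromosome 3 window and in no other of these 5. In 81 windows, with 211 members in all, no other list had a peak.

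None of the members was called against IgG. Of the 11612 members, 0 overlapped the 7506 peaks of replicate 2 against IgG. Of the 6620 shared peaks 2288 did (34.6%, 33.4 to 35.7), which is 12.5% of the 18232 peaks of the whole replicate 3 list. The 0 is fixed almost wholly by the rule, because 7505 of these 7506 IgG peaks share a base with a replicate 2 peak against input. Upper limits on the share (0.0258% by the rule of 3 counts, 0.0318% by the exact 95% binomial interval) therefore say nothing about the members. For replicate 3 itself the list against IgG held the 1 peak on chromosome Y described above, which overlapped neither a member nor a shared peak.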

How the data were processed

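The submitters' processing notes name MACS2, Bowtie2, BWA and CASAVA 1.4, and hg19 and GRCh37 as builds. What each tool did, its thresholds, the filter behind the lists and any pooling of reads are not stated there. The deposited lists give each peak a fold enrichment (a ratio to the control), a −log10 p, a −log10 q, a score and a summit offset in bp, as the authors' peak caller wrote them. The deposited score equalled 10 times −log10 p, cut to a whole number, and was not used. Library totals were not analysed here; depth is seen only through the reads recovered at summits.

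The members and lists were chosen with earlier results of these data known. Peaks overlapped when they shared at least 1 base. Distances are bases between closest edges. Recovered reads were matched with a tolerance of 0.0005 in −log10 p. Regions were named by rank of fold (10), q, distance, width, run and window (5 each). Those named by q were taken from outside the 10 highest by fold. Python 3.11.15, NumPy 2.4.6, pandas 2.3.3, SciPy 1.17.1 and matplotlib 3.10.9 were used. bedtools 2.31.1 gave the same 11612 members. On simulated lists all 4000 memberships and distances and all 1925 read numbers were recovered. No hg19 genome or annotation was used here, so genes, motifs and sequences are not reported. Alternatives changed the overlap rule, the q limit, the lists used and the denominator of density.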

Additional observations from a re-analysis of the deposited data

How the results depend on the processing

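In all settings chromosome 22 was the densest autosome. Chromosome 4 was the least dense in all but the one that left it out, where chromosome 13 was. Counting peaks within 100 bp as overlapping moved no value beyond its 95% interval. Counting peaks within 1 kb as overlapping gave 60.9% of the list, a density of 3.95 per Mb, a median distance of 27.8 kb and 25.2% within 10 kb. Requiring summits more than 100 bp apart gave 73.7%, 4.78 per Mb, 18.3 kb and 38.2%, with a median width of 226 bp and fold of 4.31. With a q of 0.05 or less in every list the share was 62.3%, the density 3.72 and the fold 4.39. With that limit on replicate 3 alone they were 62.3%, 3.72 and 4.39, with a width of 219 bp. Without the list tied to no library they were 69.2%, 4.49 and 4.31, with a width of 225 bp and a distance of 26.4 kb. Leaving out replicate 1 or replicate 2 from the rule gave 11630 to 11699 members, 63.8% to 64.2% of the list. Density was then 4.14 to 4.17, the ratio of the densest to the least dense autosome 5.31 to 5.35, the distance 29.1 to 31.8 kb, the share within 10 kb 25.0% to 25.5%, the fold 4.26 to 4.27 and the width 222 bp. Density per 1 Mb window with a peak was 4.29. In settings chosen after seeing the data, at least 6 reads at the summit left 5972 members, 53.0% of the peaks, with a density of 2.13, a ratio of 6.35, a fold of 4.80 and a width of 206 bp. Without chromosomes 2, 4, 6 and 21 the density was 4.77, the ratio 3.03, the fold 4.24 and the width 219 bp. No paired analysis was possible because the members come from 1 library and no test was made. The planned sequence and gene descriptions were not run. Reads were recovered only at the summits of each list's own peaks. The absence of a peak from another list therefore does not show whether the site was bound or unbound there, and this was not tested.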
